A study of Mus musculus and Homo sapiens
Mus musculus with 12 samples.

Results

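The nuclei described here were interneurons of the mouse brain that carried Lhx6 and little or no somatostatin. They were chosen by 7 genes from the 11198 nuclei of 7 brain libraries. A nucleus was taken when it held at least 1 unique fragment identifier (UFI, the count of one tagged cDNA fragment) on Lhx6, at least 5 UFIs on Nxph1 and at least 5 on Erbb4 in every 10000 of its UFIs, at least 1 in 10000 on Gad1 and Gad2 together, less than 2 in 10000 on Sst and less than 10 in 10000 on Adarb2. This rule found 301 nuclei, 2.69% of all, called no-Sst Lhx6 nuclei below.

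Lhx6 is a transcription factor of interneurons born in the medial ganglionic eminence, the ventral part of the embryonic forebrain that gives rise to the parvalbumin and somatostatin classes of cortical, hippocampal and striatal interneurons. Parvalbumin interneurons fire fast trains of short action potentials, which rest on Kv3 potassium channels, and they form basket synapses on cell bodies or chandelier synapses on axon initial segments. Many of them are wrapped in a perineuronal net of proteoglycans.

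The brains came from wild-type C57BL/6J male mice of 6 to 8 weeks by the study's methods, and no label says how many animals were used. The assay, snHH-seq, primes total RNA of fixed nuclei with random primers, so that a long transcript can give several UFIs. There were 4 libraries from frozen tissue (No_index_frozen_1, No_index_frozen_2, Index_frozen_1 and Index_frozen_2) and 3 from fresh tissue (No_index_fresh_1, No_index_fresh_2 and Index_fresh_1). The reverse transcription primer carried a cell barcode of its own (a preindex) in the 3 Index libraries and none in the 4 No_index libraries. In 4 libraries the treatment label contradicts the primer given by the title. Primers were taken from the titles, and the barcodes in the files were 40 bases long in the libraries titled Index and 30 in those titled No_index. Whether replicates came from separate mice is not given, so p-values measure the spread between these libraries, which may be technical.

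The no-Sst Lhx6 nuclei numbered 6 of 700 nuclei in No_index_frozen_1, 26 of 800 in No_index_frozen_2, 64 of 2300 in Index_frozen_1, 64 of 1998 in Index_frozen_2, 22 of 1000 in No_index_fresh_1, 38 of 1300 in No_index_fresh_2 and 81 of 3100 in Index_fresh_1. The libraries held from 8605214 UFIs (No_index_frozen_1) to 42439731 (No_index_fresh_2). The library No_index_frozen_1 was thin, and results that rest on it are given without it as well. The nuclei had a median of 14779 UFIs on 3799 genes, against 12582 UFIs on 3425 genes in the other 10897 nuclei. The median depth per library ran from 10093 UFIs in Index_fresh_1 to 31144 in No_index_fresh_2. The libraries Index_frozen_1 and Index_frozen_2 stood apart from the rest by transcripts of kidney and liver. A list of 8 genes of these organs summed to 7.76 and 6.81 UFIs per 10000 in the other nuclei of these 2 libraries and to at most 0.473 in the other 5, and 268 and 222 of their nuclei held 3 or more such UFIs, against 2 to 29 in each other library. All these nuclei stay among the 11198, in the share of each library and in the other nuclei. The list summed to 0.0975 ± 0.052 per 10000 in the no-Sst Lhx6 nuclei, of which 1 held 3 or more such UFIs, in No_index_fresh_2. Only 2 of the 301 had a barcode that was also present in another library, as had 64 of all nuclei.

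The genes of the rule are given as a description only. Lhx6 averaged 1.05 ± 0.22 UFIs per 10000 (SD, n = 7 libraries), and 150 of the 301 nuclei had passed with 1 Lhx6 UFI. Nxph1, which encodes a secreted ligand of neurexins, averaged 39.4 ± 5.7 per 10000. Erbb4, the neuregulin receptor of these interneurons, averaged 82.6 ± 20 per 10000, from 44.5 in No_index_frozen_1 to 104 in Index_fresh_1. Gad1 and Gad2, the enzymes that make GABA, averaged 4.20 ± 0.58 and 2.61 ± 0.27 per 10000. Sst had no UFI in 257 of the nuclei and some in 44, and Adarb2 had none in 223.

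The nuclei near each limit of the rule are given without a test. A further 361 nuclei met every criterion except the Lhx6 UFI, and 21.3% of them had a Pvalb UFI. Just inside the Sst limit, with 1 to 2 Sst UFIs per 10000, stood 26 nuclei, of which 3.85% had a Pvalb UFI. Just outside it, with 2 to 4, stood 27, and none had one. At the Erbb4 limit, 5.26% of the 19 nuclei with 5 to 10 per 10000 and none of the 13 with 2.5 to 5 had a Pvalb UFI. At the Nxph1 limit 40% of the 15 nuclei inside (5 to 10) and 33.3% of the 3 outside (2.5 to 5) had one. At the Adarb2 limit these shares were 14.3% of 7 nuclei inside (5 to 10) and 20% of 5 outside (10 to 20), and at the limit of Gad1 and Gad2 none of 12 inside (1 to 2) and 1 of the 2 outside.

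Beyond the genes of the rule, the genes with the highest ratio to all other nuclei were Eya4, Moxd1, Kcns3, Cemip and Kcnmb2. These ratios describe the nuclei and carry no test, and they were ranked among the 1319 genes with at least 1 UFI per 10000 in every library. Eya4, a transcriptional coactivator, stood at 2.68 per 10000 against 0.13 in the other nuclei, a ratio of 20.7. Moxd1, a monooxygenase-like protein, had a ratio of 14.9. Kcns3, a silent subunit that modifies Kv2 channels, had a ratio of 12.6, and Kcnmb2, an auxiliary subunit of the large-conductance calcium-activated potassium channel, one of 10.4. Cemip, which takes part in the breakdown of hyaluronan, had a ratio of 12.3. Oprd1 (the delta opioid receptor), Sox6, Nek7, Tmem132c, Btbd11, Gpr176, Afap1 and Kcnc2 followed with ratios from 8.43 down to 6.59. All of these genes were higher than in the other nuclei in 7 of 7 libraries.

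How far these nuclei were parvalbumin interneurons was asked first of Pvalb itself, which encodes a calcium-binding protein and lies on chromosome 15 (chr15:78191114-78206400, minus strand, GRCm38). Of the 301 nuclei, 89 had a Pvalb UFI (29.6%, 95% exact binomial interval 24.5 to 35.1), 46 of them with 1 UFI and 43 with 2 or more. In nuclei that should lack the gene the share was 1.41% of 1769 excitatory nuclei (no Gad1 or Gad2 UFI and at least 2 Slc17a7 UFIs per 10000, median depth 13499 UFIs) and 2.59% of 193 oligodendrocyte nuclei (95% exact interval 0.846 to 5.94, median depth 10773 UFIs). Intervals here cover counting error only. For 70.4% of the no-Sst Lhx6 nuclei, Pvalb was not detected at this depth, which does not show that it is absent.

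The Pvalb level in the summed nuclei was 0.514 UFIs per 10000 in No_index_frozen_1, 0.334 in No_index_frozen_2, 0.326 in Index_frozen_1, 0.274 in Index_frozen_2, 0.460 in No_index_fresh_1, 0.495 in No_index_fresh_2 and 0.256 in Index_fresh_1. All 4 No_index libraries stood above the 3 Index libraries. In all other nuclei the share with a Pvalb UFI also lay higher in the No_index libraries, at 4.50% to 8.14%, than in the Index libraries, at 1.16% to 1.86%. The part of free RNA in this difference was not tested.

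Pvalb detection was then compared with 2 other sets of interneurons. The Sst set (61 nuclei) met the same rule but held at least 2 Sst UFIs per 10000. Interneurons from the caudal ganglionic eminence carry Adarb2 and mostly lack Lhx6. The Adarb2 set (888 nuclei) held at least 10 Adarb2 UFIs per 10000 with Gad1 and Gad2 and no Lhx6 UFI, and 42% of its nuclei also had Meis2, so it was not made of caudal interneurons alone. Each nucleus was thinned to 5000 UFIs, which left out 2 no-Sst Lhx6 nuclei, 2 of the Sst set and 23 of the Adarb2 set. The thinned share with Pvalb averaged 17.1% ± 8.56 (SD, n = 7 libraries) in the no-Sst Lhx6 nuclei, 0.893% ± 2.36 in the Sst set and 3.21% ± 3.19 in the Adarb2 set. It was higher than in either set in 7 of 7 libraries (exact paired permutation test, two-sided, p = 0.0156 for each, the smallest it can give with 7 libraries). Without thinning, the shares were 35.6%, 0.893% and 6.01%. In the Sst set 1 nucleus of 61 had a Pvalb UFI. This set held 2 to 16 nuclei a library and no Pvalb in 6 libraries, where any share above 0 counted as higher. After thinning, 2 of 6 no-Sst Lhx6 nuclei had Pvalb in No_index_frozen_1. In No_index_frozen_2 they were 3 of 26, against 5 of 81 in the Adarb2 set.

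**Figure D1:**
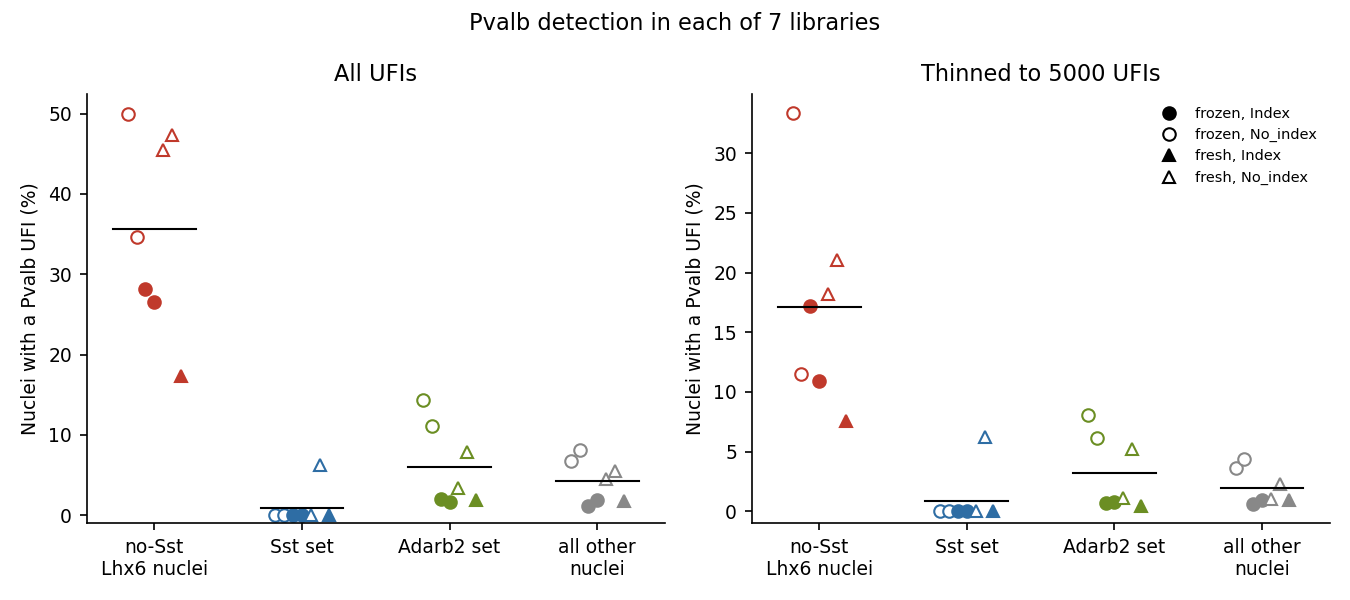
Share of nuclei with at least 1 Pvalb UFI (vertical axis, percent) in each of 7 libraries for the no-Sst Lhx6 nuclei, the Sst set, the Adarb2 set and all other nuclei (both sets included), with all UFIs (left) and after thinning to 5000 UFIs (right); lines are means over libraries, circles frozen and triangles fresh tissue, filled symbols Index and open symbols No_index. The no-Sst Lhx6 nuclei lie between 17.3% and 50% with all UFIs, and in each library they lie above the other 3 groups.

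Against the Sst set, the no-Sst Lhx6 nuclei had more of the fast-spiking genes and less of the somatostatin lineage genes. Summed counts per library were compared by edgeR with the library as a block, and p-values were adjusted by Benjamini-Hochberg over 6172 genes, of which 6.59% were higher and 5.67% lower. The expression filter had a limit of 31.7 CPM (counts per 10 to the power of 6 UFIs). A gene entered the test when it reached this limit in 2 library sums, counted over both sets together. Of the genes tested, 230 reached it in 2 libraries of neither set alone. A gene present in 1 set alone had to differ. Counts of called list genes therefore cover the 4718 genes that reached this limit in 2 libraries of each set, of which 7.16% were higher and 5.28% lower, a choice made after seeing the data. List genes that reached it in 1 set alone are given by their values. The median log2 fold change of all genes tested was 0.00. The Sst set held only 2 nuclei in No_index_frozen_1 and 3 in No_index_frozen_2, and without No_index_fresh_2, which held 16, the calls fell from 757 to 427 of 3861 genes tested. Of 18 fast-spiking genes, 11 reached the limit in both sets, and 9 of these were higher and none lower, with a median log2 fold change of 1.34. Pvalb, Syt2 and Mybpc1 reached it only in the no-Sst Lhx6 nuclei. The no-Sst Lhx6 nuclei had a UFI on a median of 10 of the 18 genes, the Sst set on 8, the Adarb2 set on 6 and all other nuclei on 5. These counts were not thinned, and the median depths were 14779, 17287, 11797 and 12582 UFIs in the same order. The 18 genes summed to 74.6 ± 8.1 UFIs per 10000 in the no-Sst Lhx6 nuclei, against 37.3 ± 5.2 in the Sst set. Kcnc2 held the largest part of both sums, at 33.0 and 18.7 per 10000 in UFIs summed over all libraries. In sums over nuclei, fewer expressing cells and less RNA per cell cannot be told apart.

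Among the fast-spiking genes, Pvalb had 198 UFIs in the no-Sst Lhx6 nuclei and 1 in the Sst set, a ratio per UFI of 41.7 (exact interval from counting 7.39 to 1653). This interval takes each UFI as independent and leaves out the spread between nuclei and libraries, and 43 nuclei held 2 or more Pvalb UFIs, at most 13. Syt2, the fast calcium sensor of transmitter release, stood at 1.80, 2.86, 2.12, 2.06, 2.82, 2.11 and 1.67 per 10000 in the libraries in the order above. In the Sst set it was at 0 in 5 libraries and at 0.253 and 0.495 in No_index_fresh_1 and No_index_fresh_2, so the groups did not overlap. Mybpc1 had 172 UFIs against none in the Sst set, at least 12.1-fold higher when the Sst set is put at a floor of 3 UFIs over the set. Btbd11, an ankyrin-repeat protein of inhibitory neurons, averaged 9.49 ± 0.46 per 10000 against 1.79 ± 1.0 (log2 fold change 2.69 ± 0.20, edgeR adjusted p = 1.53e-08).

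The Kv3 channel genes Kcnc1 and Kcnc2 were higher as well. Kcnc1 (Kv3.1) averaged 7.78 ± 0.90 per 10000 against 3.19 ± 0.55 and was higher in 7 of 7 libraries (log2 fold change 1.34 ± 0.15, edgeR adjusted p = 3.41e-06). Kcnc2 (Kv3.2) stood at 14.5, 28.3, 33.5, 30.2, 32.0, 34.8 and 38.6 per 10000 in the order above, against 15.6, 14.7, 19.9, 25.1, 22.2, 14.7 and 21.1 in the Sst set. It was lower only in No_index_frozen_1, with its 6 nuclei (log2 fold change 0.71 ± 0.16, edgeR adjusted p = 0.00317, and 0.0615 with Nxph1 and Erbb4 at 10 or more per 10000). Kcna1, Kcns3, Cplx1, Cntnap4 and Ppargc1a also rose, with log2 fold changes from 0.93 to 1.49. Eya4 (0.62, edgeR adjusted p = 0.204), Ank1 (0.50, edgeR adjusted p = 0.0658) and Tac1 (1.00, edgeR adjusted p = 0.376) did not pass the test. Without a filter on low counts Eya4 passed (0.78, edgeR adjusted p = 0.00537), and Ank1 passed in 6 alternatives (edgeR adjusted p from 0.0150 without the filter to 0.0388 with Nxph1 and Erbb4 at 10 or more). Eya4 was found in 46.8% of the no-Sst Lhx6 nuclei and 47.5% of the Sst set. Acan, Cox6a2 and Lrrc38 were too low to be tested.

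Per 10 kb of gene span, the level in the no-Sst Lhx6 nuclei was 1.81 UFIs per 10000 for Kcnc1, 1.69 for Kcnc2, 0.348 for Btbd11, 0.236 for Pvalb, 0.216 for Kcns3, 0.188 for Syt2, 0.104 for Eya4 and 0.0360 for Mybpc1. Pvalb, in a gene of 15.3 kb, thus stood between Btbd11 and Kcns3 on this scale.

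**Figure D2:**
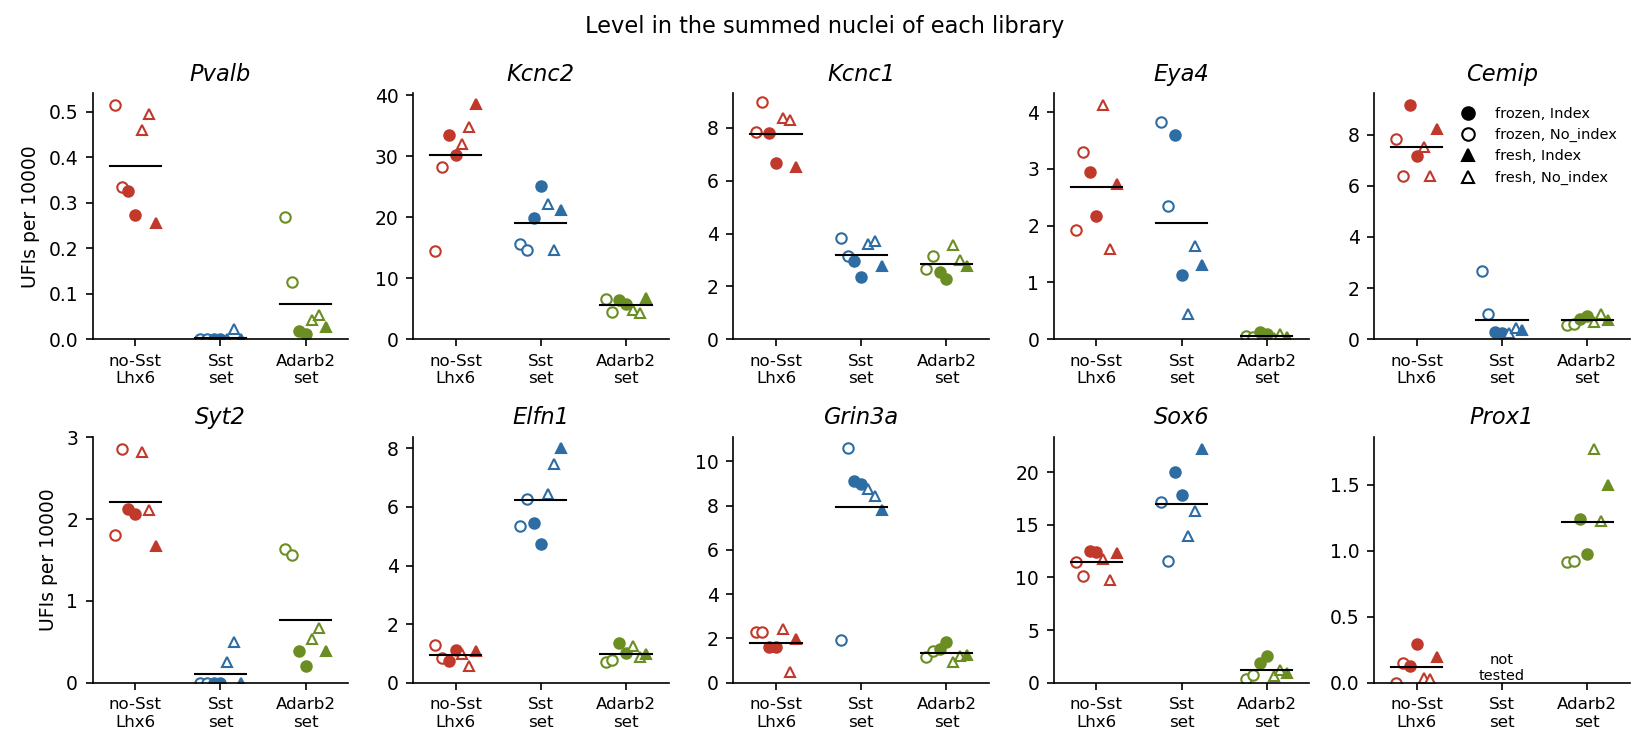
Level in the summed nuclei of each library (vertical axes, UFIs per 10000, each panel on its own linear scale from 0) of 10 genes in the no-Sst Lhx6 nuclei, the Sst set and the Adarb2 set; lines are means over 7 libraries, circles frozen and triangles fresh tissue, filled symbols Index and open symbols No_index. Kcnc1, Syt2 and Cemip separate the no-Sst Lhx6 nuclei from the Sst set without overlap, while Eya4 overlaps with it and separates from the Adarb2 set; Prox1 could not be tested in the Sst set and is not drawn there.

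Of 13 somatostatin lineage genes 5 reached the limit in both sets, and all 5 were lower than in the Sst set, with a median log2 fold change of -2.30. The Sst set was defined by one gene of this lineage. Elfn1, a synaptic protein that sets the strength of inputs onto somatostatin cells, stood at 0.947 ± 0.24 against 6.25 ± 1.2 per 10000, lower in 7 of 7 libraries (edgeR adjusted p = 1.3e-08). Grin3a, an NMDA receptor subunit, stood at 1.82 ± 0.67 against 7.94 ± 2.8 (edgeR adjusted p = 8.28e-06), and Nos1, Crhbp and Tacr1 were the others. Npy reached the limit only in the Sst set. Without No_index_fresh_2, Tacr1 no longer passed (log2 fold change -1.66, edgeR adjusted p = 0.0504).

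Of 5 chandelier genes, 2 reached the limit in both sets. Cpne5 was lower (-1.81 on the log2 scale, edgeR adjusted p = 0.000237, and 0.0539 with Nxph1 and Erbb4 at 10 or more per 10000) and Gpr149 did not pass (-0.53). Unc5b, a netrin receptor that reached it only in the no-Sst Lhx6 nuclei, stood at 0.327 ± 0.23 against 0.0518 ± 0.070 per 10000. Of 6 genes of medial ganglionic eminence and forebrain interneurons that reached it in both, 1 was higher and the transcription factors Sox6 and Satb1 were lower. Sox6 still stood at 11.5 ± 1.1 per 10000, against 17.0 ± 3.6 in the Sst set.

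The largest rises against the Sst set, among abundant genes that were higher in all 7 libraries, were those of Pde5a, Cemip, Syt2, Igsf11, 6330411D24Rik, Frmpd1, Ptpre, Myo1e, Dock4 and Gpr176. Pde5a, a phosphodiesterase that cleaves cyclic GMP, stood between 0.643 and 1.78 per 10000, and in the Sst set it was at 0 in 5 of 7 libraries. Cemip stood between 6.37 and 9.16 per 10000, against 0.240 to 2.67 (log2 fold change 4.04 ± 0.29, edgeR adjusted p = 1.3e-08). The other genes of this group that reached the CPM limit in both sets had log2 fold changes from 2.76 to 3.20. Pde5a, Syt2, Igsf11 and Frmpd1 reached the CPM limit only in the no-Sst Lhx6 nuclei. They had to differ, and their place in this ranking is a description only.

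The largest falls were those of Man1a, Npy, Elfn1, Gm28175, Ankfn1, Bmper, Ptpru, Rnf152, Sox2ot and Col25a1. Man1a, a mannosidase of the Golgi, averaged 0.752 ± 0.40 per 10000 against 6.36 ± 3.0 (log2 fold change -3.31 ± 0.37, edgeR adjusted p = 2.65e-06). Npy, a neuropeptide of many somatostatin cells, averaged 0.174 ± 0.10 against 1.15 ± 0.68. Sox2ot, a long noncoding RNA, averaged 8.94 ± 2.3 against 40.9 ± 21. Npy, Gm28175 and Bmper reached the CPM limit only in the Sst set, so that their place in this ranking is a description only.

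**Figure D3:**
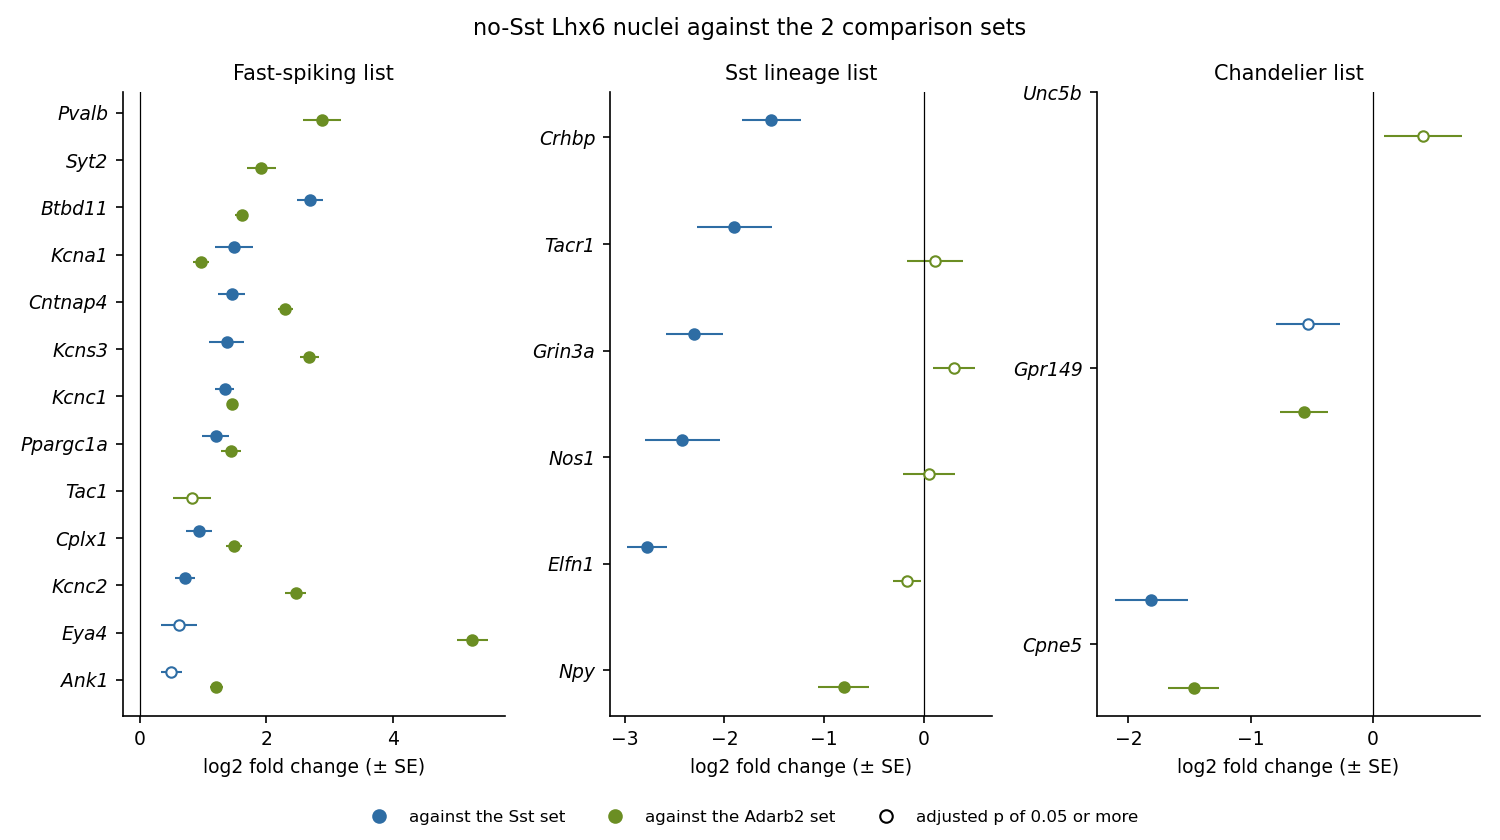
Log2 fold change (horizontal axes) of the no-Sst Lhx6 nuclei against the Sst set (blue) and the Adarb2 set (green) for fast-spiking, somatostatin lineage and chandelier genes that reached the CPM limit in both sets compared, with bars of 1 SE from edgeR; open symbols did not reach an adjusted p under 0.05. Every fast-spiking gene drawn lies to the right of 0 and every somatostatin lineage gene drawn lies to the left of 0 against the Sst set; Pvalb, Syt2, Tac1, Npy and Unc5b are shown only against the Adarb2 set and Crhbp only against the Sst set.

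Against the Adarb2 set the background of change was wider, with 12.8% of 10068 genes higher and 16.1% lower (edgeR, adjusted p under 0.05, library as a block) and a median log2 fold change of -0.01 over all genes. Among the 8614 genes that reached the CPM limit of this comparison, 8.20, in 2 libraries of each set, 13.3% were higher and 14.8% lower. The no-Sst Lhx6 nuclei enter both comparisons. Of 14 fast-spiking genes that reached it in both sets 13 were higher, with a median of 1.55 on the log2 scale, and only Tac1, the precursor of substance P, did not pass (0.82, edgeR adjusted p = 0.0521, and from 0.00371 to 0.0477 in 6 alternatives where it passed). Pvalb stood at 0.380 ± 0.11 against 0.0779 ± 0.093 per 10000, higher in 7 of 7 libraries (log2 fold change 2.88 ± 0.30, edgeR adjusted p = 6.88e-07). Kcnc2 stood at 30.3 ± 7.7 against 5.57 ± 1.0 (log2 fold change 2.46 ± 0.17, edgeR adjusted p = 3.72e-09). Eya4 stood at 2.68 ± 0.87 against 0.0647 ± 0.036 (log2 fold change 5.26 ± 0.24, edgeR adjusted p = 3.3e-11).

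Of 8 genes of the medial eminence and forebrain interneurons that reached the limit in both sets, 5 were higher than in the Adarb2 set, among them Sox6, Satb1 and Maf, and Dlx6os1 was lower (-0.50, edgeR adjusted p = 0.0381). The rule asked for an Lhx6 UFI, and the Adarb2 set was taken without one. Lhx6 belongs to the medial eminence lineage, so these calls do not stand apart from the choice of nuclei. Sox6 stood between 9.76 and 12.5 per 10000, against 1.18 ± 0.77 in the Adarb2 set. Moxd1, Myo1e, Nek7, Tmem44, Oprd1, Tmem132c, Cemip and Kcns3 completed the 10 largest rises among genes with a mean CPM of at least 50 that were higher in 7 of 7 libraries. Moxd1 reached the CPM limit only in the no-Sst Lhx6 nuclei, so that its place in this ranking is a description only. The others from Myo1e to Kcns3 had log2 fold changes from 2.68 to 3.94. The caudal eminence genes are given as values, because the Adarb2 set had been chosen by a gene of this lineage and 7 of the 9 tested reached the limit only in that set. Vip had 1 UFI in the no-Sst Lhx6 nuclei and 894 in the Adarb2 set, Htr3a (a serotonin receptor subunit) 3 and 212, and the chemokine gene Cxcl14 3 and 572. The homeobox gene Prox1 stood at 0.117 ± 0.10 against 1.22 ± 0.32 per 10000.

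Foxp2, 6530403H02Rik, Meis2, Pbx3, Sv2c, Zfhx4, Syt6, Prox1, Trpm3 and Sema5b had the largest falls against the Adarb2 set among genes with a mean CPM of at least 50 that were lower in 7 of 7 libraries, with log2 fold changes from -3.03 to -3.91. Foxp2, a transcription factor, stood at 1.41 per 10000 in No_index_frozen_1 and at 0.0985 to 0.522 in the other 6 libraries, all under the value of the Adarb2 set in the same library. Of 5 somatostatin lineage genes that reached the limit in both sets, none was higher and Npy was lower. Crhbp, which reached it only in the no-Sst Lhx6 nuclei, stood at 0.294 ± 0.15 against 0.0151 ± 0.012 per 10000, and Calb2, which reached it only in the Adarb2 set, at 0.0204 ± 0.022 against 0.106 ± 0.054. The call of Npy was lost without Index_frozen_1, No_index_fresh_1 or No_index_fresh_2 (edgeR adjusted p up to 0.144), with no library block (edgeR adjusted p = 0.141) and under DESeq2. The levels of Elfn1 (0.947 against 0.994 per 10000) and Grin3a (1.82 against 1.34) did not pass the test. Without the nuclei that held any Sst UFI both passed as lower, Elfn1 at -1.09 on the log2 scale (edgeR adjusted p = 5.78e-05) and Grin3a at -0.79 (edgeR adjusted p = 0.00731). With Nxph1 and Erbb4 at 10 or more per 10000, Elfn1 passed as lower too (-0.74, edgeR adjusted p = 0.0284). Without No_index_fresh_2, Grin3a passed as higher (0.55, edgeR adjusted p = 0.0165).

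Of 3 chandelier genes that reached the limit in both sets, Cpne5 and Gpr149 were lower than in the Adarb2 set and Unc5b did not pass. Cpne5 kept its call with any 1 library left out. Gpr149 (-0.56 on the log2 scale) lost it without any of 5 libraries, that is all but No_index_frozen_2 and No_index_fresh_2 (edgeR adjusted p up to 0.113), with no library block and with Nxph1 and Erbb4 at 10 or more per 10000 (edgeR adjusted p = 0.0696). Vipr2, which reached the limit only in the Adarb2 set, had 14 UFIs against 137.

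Markers of other cells were summed over the no-Sst Lhx6 nuclei of each library. The 10 excitatory genes summed to 7.44 ± 0.72 per 10000, against 5.72 ± 1.5 in the Sst set, 7.53 ± 1.1 in the Adarb2 set and 12.8 ± 1.0 in all other nuclei, with Cux2 the most abundant, and 18 of the 301 nuclei had 2 or more UFIs on Slc17a7, Slc17a6 and Neurod6. Only 2 of the 10 excitatory genes could be tested against the Sst set, and of these Camk2a, a kinase of excitatory neurons, was higher (3.15 ± 0.55 against 2.07 ± 0.52, edgeR adjusted p = 0.0353), beside 7.16% of all genes at the limit in both sets. The 6 oligodendrocyte genes summed to 1.98 ± 1.0, against 1.80 ± 2.4 in the Sst set and 2.42 ± 0.90 in the Adarb2 set. The 6 astrocyte genes summed to 1.14 ± 0.45, against 0.682 ± 0.28 and 3.28 ± 0.52, and the 3 oligodendrocyte precursor genes to 0.202 ± 0.16, against 0.266 ± 0.23 and 0.701 ± 0.35. In the no-Sst Lhx6 nuclei the 5 microglial genes summed to 0.108 ± 0.17 and the 4 vascular genes to 0.0900 ± 0.084, with the endothelial gene Cldn5 at 0. The 8 genes of striatal projection neurons summed to 17.7 ± 3.4, of which Pde10a held most, against 17.5 ± 4.1 in the Sst set, 19.1 ± 4.0 in the Adarb2 set and 22.5 ± 4.0 in all other nuclei. The part of RNA from other cells in the comparisons was not tested. The 11 genes of ventral GABA neurons summed to 1.04 ± 0.95, against 1.35 ± 1.1 in the Sst set and 8.97 ± 3.0 in the Adarb2 set, with Meis2 the most abundant in all 3 sets. Without the nuclei with 2 or more excitatory UFIs, which were 2 of the Sst set and 131 of the Adarb2 set, no fast-spiking gene that could still be tested changed its call in either comparison.

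The genes for excitability differed from those of the Sst set in both directions. Of 25 genes for potassium and HCN channels (the hyperpolarization-activated channels) and their subunits that reached the limit in both sets, 13 were higher and 5 lower, against 7.16% and 5.28% of all genes that did, with a median log2 fold change of 0.48. Kcnh7 averaged 14.02 ± 1.6 against 4.14 ± 1.9 per 10000 (log2 fold change 1.89 ± 0.21). The A-type channel genes Kcnd2 and Kcnd3 were lower, Kcnd2 at 14.6 ± 2.1 against 25.4 ± 4.4. Against the Adarb2 set 16 of 29 were higher and 10 lower, against 13.3% and 14.8% of all genes that reached it in both, and Kcnd2 and Kcnd3 were lower there too. Kcnq5 and Kcnip4 were higher than in the Sst set and lower than in the Adarb2 set.

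Of the sodium and calcium channel genes, 5 of 15 were higher and 4 lower than in the Sst set, and 5 of 17 were higher and 9 lower than in the Adarb2 set. The shares of all genes that reached the limit in both sets were those given for the potassium channels, and they are the background for the synapse, net and neuregulin genes as well. Scn1a, the sodium channel of fast-spiking cells, was higher than in both, at 6.31 ± 0.36 against 4.32 ± 1.4 and 3.27 ± 0.38 per 10000 (edgeR adjusted p = 0.00372 and 1.53e-07). Scn8a was also higher than in both. Cacna1e, an R-type calcium channel, was lower than in both, at 3.49 ± 0.44 against 9.38 ± 1.7 and 9.62 ± 1.5. Cacna2d3 was lower than in both as well.

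The inhibitory synapse genes split by subunit. Of 16, 7 were higher and 1 lower than in the Sst set, and of 19, 7 were higher and 7 lower than in the Adarb2 set. Gabrg3 was higher than in both, at 27.96 ± 7.8 against 9.74 ± 5.1 and 15.2 ± 3.5 per 10000, while Gabra2 was lower than in both, at 0.947 ± 0.25 against 2.71 ± 1.5 and 2.95 ± 0.30. Gabrb2 was also higher than in both. Among 17 glutamate receptor genes, Gria4 was the only one higher than in the Sst set (17.8 ± 2.7 against 11.9 ± 1.6 per 10000), and Grik3, Grm7 and Grm8 were among the 5 that were lower. Against the Adarb2 set 6 of 18 were higher and 6 lower, with Gria1 at 40.0 ± 9.9 against 16.8 ± 2.3.

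Of the genes of the perineuronal net, Tnr, Ncan and Ptprz1 reached the limit in both sets against the Sst set and did not pass, with log2 fold changes of 0.38, -0.26 and 0.12. Bcan (brevican), Hapln1 and Hapln4 (link proteins) reached it only in the no-Sst Lhx6 nuclei. Bcan averaged 0.535 ± 0.12 against 0.0330 ± 0.044 per 10000 and Hapln1 0.332 ± 0.23 against 0.0306 ± 0.032, and Hapln4 had 189 UFIs against 2. Acan (aggrecan) averaged 0.205 ± 0.15 per 10000 and was at 0 in the Sst set, too low to be tested there, and at 0.0462 ± 0.032 in the Adarb2 set. Of 6 net genes that reached the limit in both sets against the Adarb2 set, Bcan, Hapln4 and Tnr were higher and Ncan and Ptprz1 lower.

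Of 5 neuregulin genes that reached the limit in both sets, Cntnap2 was higher than in the Sst set. Egfr, the epidermal growth factor receptor, reached it only in the no-Sst Lhx6 nuclei there, with 298 UFIs against 2, and it was lower than in the Adarb2 set. Nrg1, a ligand of Erbb4, stood at 10.2 ± 2.9 per 10000 against 24.9 ± 4.6 in the Adarb2 set (log2 fold change -1.29 ± 0.14, edgeR adjusted p = 1.49e-06). Nrg3 and Cntnap2 were higher than in that set, and Dlg4 was lower. Of the 10 immediate early genes, none could be tested against the Sst set, and 1 reached the limit in both sets against the Adarb2 set and did not pass.

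**Figure D4:**
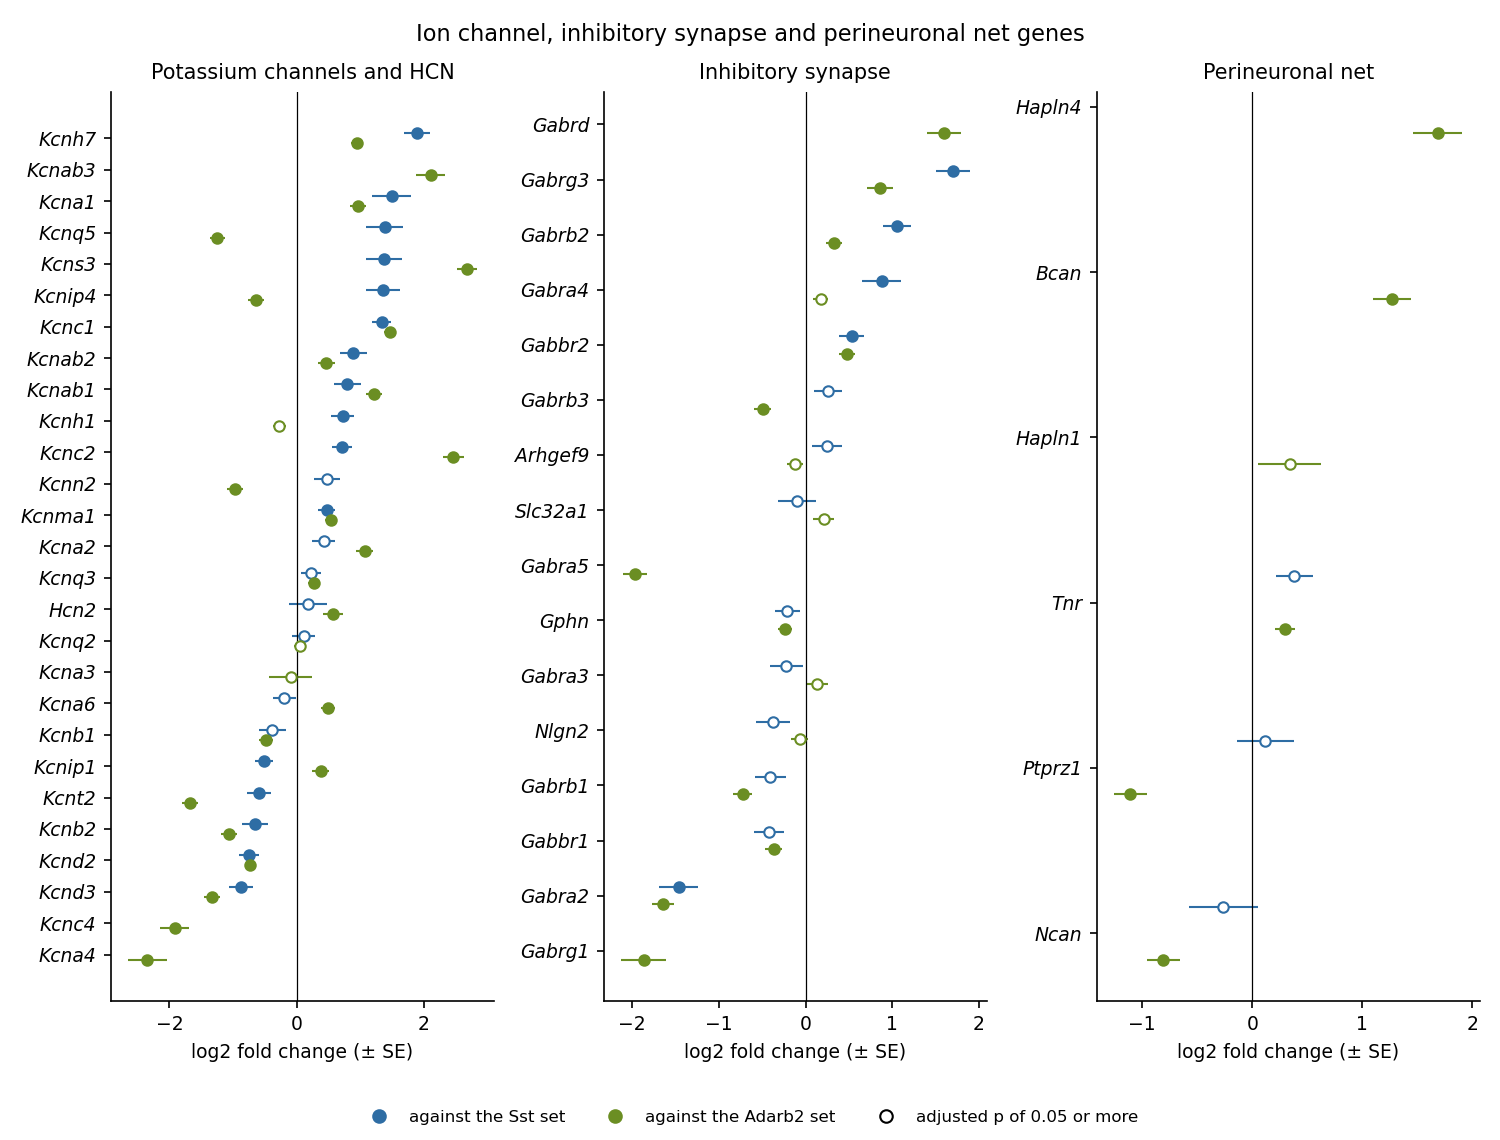
Log2 fold change (horizontal axes) of the no-Sst Lhx6 nuclei against the Sst set (blue) and the Adarb2 set (green) for potassium and HCN channel, inhibitory synapse and perineuronal net genes that reached the CPM limit in both sets compared, with bars of 1 SE from edgeR; open symbols did not reach an adjusted p under 0.05. Kcnc1 and Gabrg3 lie above 0 in both comparisons and Kcnd2 and Gabra2 below 0 in both, while Kcnq5 changes side; Bcan, Hapln1 and Hapln4 are shown only against the Adarb2 set.

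The no-Sst Lhx6 nuclei were not alike. They were clustered on 2000 variable genes into 8 subclusters after the data had been seen, and 7 to 9 came out over 10 random seeds and 13 at a resolution of 1 in place of 0.4. The subclusters are described without a test, because the same genes formed them. Subcluster 3 (45 nuclei, in all 7 libraries) had the highest share of nuclei with a Pvalb UFI, 73.3%, and held 33 of the 89 such nuclei. In it 55.6% had Acan, 60% had Mybpc1, all had Syt2 and 95.6% had Eya4. Its leading genes were 6330411D24Rik, Eya4, Tmem108, Syt2 and Parm1. Of the 18 fast-spiking genes, 8 stood more than 2-fold above the other subclusters. Kcnc2 stood lower there, at 23.0 against 35.4 per 10000 UFIs of the genes clustered, and Tac1 was at 0 against 0.194. Subcluster 5 (14 nuclei in 4 libraries), led by Col24a1, Filip1l and Mrvi1, had Pvalb in 50% and Syt2 in all, but Eya4 in 14.3%.

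Subclusters 0 and 1 were the largest, with 67 and 61 nuclei. Subcluster 0, led by Agbl1, Rspo2 and Creb5, had the highest Kcnc2 level, at 58.7 per 10000 UFIs of the 11808 genes clustered, and Pvalb in 29.9%. Subcluster 1, led by Il1rapl2, Calb1 and Col25a1, had Pvalb in 29.5%, Sst in none, and Eya4 in 55.7%.

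Subcluster 4 (38 nuclei in 7 libraries) stood nearest to the somatostatin lineage. None of its nuclei had a Pvalb UFI, 65.8% had some Sst under the limit of the rule, 94.7% had Grin3a and 81.6% had Elfn1, and Synpr, Grin3a and Elfn1 led it. Its 4 astrocyte genes summed to 3.29 per 10000 UFIs of the genes clustered, against 0.989 in the other subclusters, each more than 2-fold higher. The median depth of its nuclei was 13267 UFIs. Its Erbb4 level was 37.1 per 10000, the lowest of the 8.

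Subcluster 2 (50 nuclei), led by Fam19a1, Megf11, Gm28928 and Arpp21, had Pvalb in 16%, Meis2 in 26% and Kcnc2 at 13.0 on the same scale, and it held 10 of the 18 nuclei with excitatory UFIs. Its 6 oligodendrocyte genes summed to 5.99 per 10000 UFIs of the genes clustered, against 0.899 in the other subclusters, each more than 2-fold higher, and St18 was among its 10 leading genes. Whether these were nuclei of mixed origin was not tested. Subcluster 6 (13 nuclei), led by Cacna2d1, Hcrtr2, Frem1, Vcan and Unc5c, had Sox6 in 7.69% and Reln in 84.6% of its nuclei, no Pvalb and no Sst. Of 5 caudal eminence genes, 2 stood at least 2-fold above the other subclusters there. Lamp5, one of these 2, was in 76.9% of its nuclei, at 1.01 against 0.0479 per 10000 UFIs of the genes clustered. Nos1 was in 84.6%, and Kcnc2 stood at 6.51 against 34.5 on the same scale. Subcluster 7 (13 nuclei in 4 libraries), led by Pde11a, Mctp2, Cntnap5b and Unc5b, had Unc5b in all, Pvalb in 23.1% and Pthlh in 38.5%, and 3 of 4 chandelier genes stood more than 2-fold above the other subclusters.

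**Figure D5:**
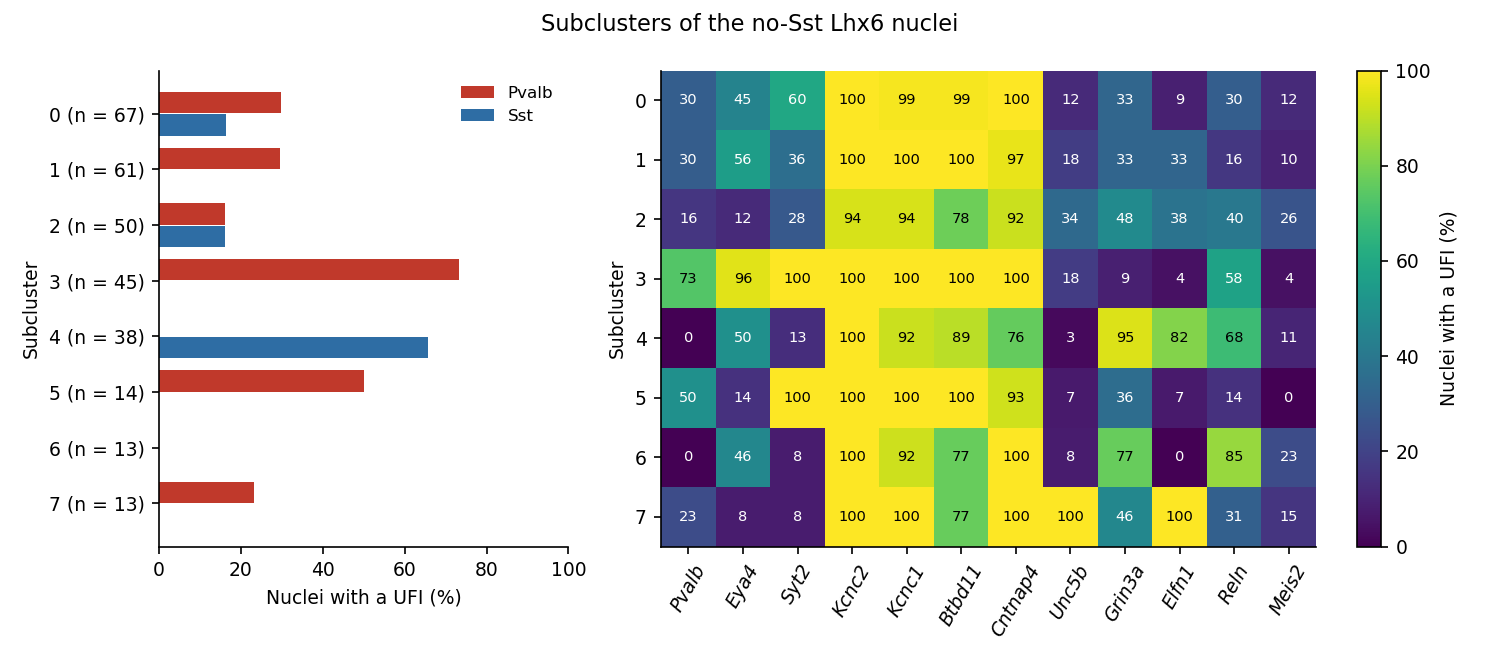
Left, share of nuclei with a Pvalb or an Sst UFI (horizontal axis, percent) in each of the 8 subclusters of the no-Sst Lhx6 nuclei, with the number of nuclei; right, share of nuclei with a UFI (colour and printed value, percent) for 12 genes. Pvalb reaches 73.3% in subcluster 3 and is at 0 in subclusters 4 and 6, and Sst reaches 65.8% in subcluster 4.

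The study compared frozen with fresh tissue and preindexed with plain primers. The share of no-Sst Lhx6 nuclei averaged 2.52% ± 1.1 (SD, n = 4) of nuclei in frozen and 2.58% ± 0.36 (n = 3) in fresh libraries, a difference within the spread (exact permutation test over 35 splits, two-sided, p = 0.971, smallest possible 0.0571, so that no share could pass 0.05). It averaged 2.87% ± 0.30 (n = 3) in Index and 2.31% ± 1.1 (n = 4) in No_index libraries (exact permutation test, two-sided, p = 0.571). With every nucleus thinned to 5000 UFIs the shares ran from 1.26% to 1.66% in Index and from 0.433% to 1.15% in No_index libraries, without overlap, at means of 1.41% ± 0.22 and 0.853% ± 0.35 (exact permutation test, two-sided, p = 0.0571, the smallest possible). For storage the thinned means were 1.13% ± 0.51 in frozen and 1.04% ± 0.30 in fresh libraries (exact permutation test, two-sided, p = 0.8). The lowest share, 0.857% in No_index_frozen_1 (95% exact interval 0.315 to 1.86), set both spreads. Without that library frozen stood 0.4999 percentage points above fresh and Index 0.0752 above No_index. With the nuclei of 3 or more kidney and liver UFIs left out, a choice made after seeing the data, the shares were 2.72% ± 1.3 in frozen and 2.59% ± 0.34 in fresh libraries (exact permutation test, two-sided, p = 0.914), and 3.13% ± 0.49 in Index and 2.32% ± 1.1 in No_index libraries (p = 0.286).

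Few genes were called for storage within the no-Sst Lhx6 nuclei, and the number of calls does not bound how many differed, since this fit and that for the primer recovered a smaller part of the changed genes in simulated data than the fits between sets. In edgeR, 0.0317% of 9454 genes passed, 2 higher in frozen tissue and 1 lower, while 414 had an unadjusted p under 0.05 and DESeq2 called 5. No fast-spiking, somatostatin lineage, chandelier or channel gene passed. St18, a transcription factor, averaged 0.799 ± 0.24 per 10000 in the 4 frozen and 0.228 ± 0.013 in the 3 fresh libraries (edgeR adjusted p = 0.0122). It is an oligodendrocyte gene, and the summed list of 6 such genes stood at 2.83, 2.58, 3.18 and 2.59 in the frozen and at 1.00, 1.05 and 0.639 in the fresh libraries, with Mbp its most abundant gene and Mog at 0 in No_index_frozen_1 and No_index_fresh_1. St18 stood highest in subcluster 2, at 2.42 per 10000 UFIs of the genes clustered against 0.151 in the others, and this subcluster held 33 of the 160 nuclei from frozen and 17 of the 141 from fresh tissue. Without it, St18 averaged 0.282 ± 0.21 in frozen and 0.0933 ± 0.028 in fresh libraries, and the lowest values were 0.114 and 0.118 in the frozen and the highest 0.111 in the fresh libraries. The part of oligodendrocyte RNA in this result was not tested. In all other nuclei St18 stood at 1.02 ± 0.13 and 0.798 ± 0.16, and the groups overlapped. Gm44511 was lower in frozen tissue, at 0.284 ± 0.066 against 0.885 ± 0.30 (edgeR adjusted p = 0.0220), and it did not overlap between the groups in all other nuclei either. The 3 calls rest on single libraries: none was left without Index_frozen_1 or without Index_fresh_1, those of St18 and Gm44511 were also lost without No_index_frozen_2, that of St18 with Nxph1 and Erbb4 at 10 or more per 10000, and that of Gm44511 without Index_frozen_2 and with the primer left out of the fit, and there were 7 calls without No_index_fresh_1 and 10 without No_index_fresh_2.

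For the primer, 0.148% of 9454 genes passed in edgeR, 3 higher and 11 lower in the Index libraries, with 740 at an unadjusted p under 0.05. Higher calls outnumbered lower ones under 3 of the alternatives, with 8 higher and 7 lower without No_index_frozen_2, the same counts with Nxph1 and Erbb4 at 10 or more per 10000, and 53 higher and 46 lower without a filter on low counts. No fast-spiking, somatostatin lineage, chandelier or channel gene passed. Rn7sk, a small nuclear RNA with near-identical copies in the genome that make its count uncertain, averaged 4.44 ± 0.11 per 10000 in Index and 11.3 ± 0.93 in No_index libraries (edgeR adjusted p = 0.000659). Lars2, a mitochondrial tRNA synthetase, averaged 19.3 ± 0.74 and 46.3 ± 10, Cd44, an adhesion receptor, 0.195 ± 0.060 and 1.13 ± 0.29, Gm24601 1.46 ± 0.16 and 4.41 ± 0.89, and Gm15564 0.556 ± 0.089 and 1.93 ± 0.71. In all other nuclei these 5 genes were also lower in the Index libraries without overlap, by 2.22 to 5.55 times. Gpc5, a glypican (1.31 ± 0.40 and 0.290 ± 0.15), and Brinp3 (3.16 ± 0.97 and 1.56 ± 0.19) were higher in Index, and in all other nuclei their groups overlapped, at ratios of 0.973 and 1.00. The call of Gpc5 was lost without Index_fresh_1 (edgeR adjusted p = 0.309), and that of Brinp3 without any of 5 libraries, that is all but No_index_frozen_2 and Index_frozen_2 (edgeR adjusted p up to 0.660), with the replicate block (0.124), without the nuclei that held any Sst UFI (0.135) and with storage left out of the fit (0.0531). The call of Lars2 was lost without Index_frozen_1 (edgeR adjusted p = 0.0591). Without No_index_frozen_1, No_index_fresh_2, Index_frozen_1 or Index_fresh_1 there were 23, 22, 6 and 9 calls.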

How the data were processed

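snHH-seq libraries of 7 mouse brain samples were used; files of mixed cell lines were not used here, and nuclei with kidney and liver transcripts, most of them in 2 of the libraries, were kept. By the study's methods and the labels, the authors trimmed reads with Cutadapt, took real cells from the UMI-tools whitelist, aligned with STAR in its 2-pass mode, assigned unique reads to whole genes with featureCounts, and collapsed them with UMI-tools. By the same methods, low-quality nuclei and potential doublets were removed in Scanpy with cutoffs set by hand. The study reports fewer mouse brain nuclei than the 11198 in the files used here. Whether the deposited files come before or after this removal is not given in the sources used here. The labels name human and mouse builds (GRCh38, GRCm38, mm10); tool versions for the brain libraries are not given in the sources used here. The deposited values are raw counts of unique fragment identifiers (UFIs) per gene and nucleus, not normalised. The study describes the UFI as strand-specific; the strand setting of featureCounts is not given in the sources used here. No doublet caller was run, and 15 of the 301 nuclei held over 40000 UFIs. The number of columns not matched to a sample was 0.

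Nuclei were chosen by UFIs per 10000. Counts were summed per library and set and tested in edgeR 4.0.16 (R 4.3.3) by the quasi-likelihood test with TMM scaling, its default expression filter, Benjamini-Hochberg adjustment and a threshold of 0.05, with the library as a block between sets, or storage and primer as terms within the no-Sst Lhx6 nuclei. The steps were tested on simulated data. A level in the text is the mean of per-library values, over all 7 libraries unless a group of them is named. Levels per 10 kb of gene span and levels in subclusters come from UFIs summed over all libraries. Shares were compared by exact permutation tests (scipy 1.17.1). Subclusters came from leidenalg 0.10.2 at a resolution of 0.4. Alternatives were DESeq2 1.42.0, upper-quartile scaling, no filter, other thinning, a fit without block or with a replicate block, other rules for members, and each library left out. Gene spans came from GENCODE M21 on GRCm38.

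Genes named were those of the rule, genes of lists by role, the 10 largest rises and falls between sets among genes of a mean CPM of at least 50 that moved the same way in 7 of 7 libraries, up to 5 in each direction for storage and primer, and the 15 largest ratios to other nuclei. The nuclei, lists and tests were chosen with earlier results of these data known. Some genes of these lists and comparisons are counted but not reported here by name.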

Additional observations from a re-analysis of the deposited data

Results flagged for a closer look

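Of 18 groups of 4 libraries checked, with the genes of the rule left out, 1 held a library far from the other 3, and chance flags about 1 in 20 groups. Among the 4 libraries without a preindex, Grin3a was lowest in No_index_fresh_2, at 0.487 UFIs per 10000 in the no-Sst Lhx6 nuclei.

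An interaction term of storage and primer passed the test for 5 of 9454 genes (edgeR, adjusted p under 0.05; 440 had an unadjusted p under 0.05). The values are the log2 fold change of frozen over fresh with the preindex minus that without it, and they rest on 1 library for Index_fresh, so that its own spread was not measured. Ebf1, a transcription factor, differed by -5.39 (edgeR adjusted p = 0.0292), Gm26561 by -3.31 (edgeR adjusted p = 0.000224) and the mitochondrial tRNA gene mt-Tv by -3.14 (edgeR adjusted p = 0.00096). Hs3st2, a heparan sulfate sulfotransferase, differed by 5.81 (edgeR adjusted p = 0.00415) and Erdr1 by 4.20 (edgeR adjusted p = 0.0459). Ebf1 stood at a CPM of 5.40 in frozen and 66.1 in fresh tissue with the preindex, and at 50.6 and 7.54 without it.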

How the results depend on the processing

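Against the Sst set, 757 genes were called, and 418 of 3567 tested with Nxph1 and Erbb4 at 10 or more per 10000, where the Sst set held 30 nuclei, and 427 to 823 with 1 library left out (427 without No_index_fresh_2, where fewer genes could be tested). With the Sst set taken without the Erbb4 minimum or without both No_index_frozen libraries, alternatives chosen after seeing the data, 1052 and 814 were called. Against the Adarb2 set the 2910 calls stayed within 1.5 times under every alternative run, from 2373 without the library block to 3053 without a filter. For storage, the 3 calls became 5 under DESeq2, 61 without a filter on low counts, 6 with a replicate block, 1 with the primer left out of the fit, and 0 to 10 with 1 library left out. For the primer, the 14 calls became 99 without a filter, 22 with storage left out, 12 with the replicate block, and 6 to 23 with 1 library left out. The cause was not tested. The replicate numbers did not pair the samples: deviations of libraries with the same number correlated at -0.0232, -0.0165 and 0.0225 over 9461 genes. The difference in Pvalb detection kept its direction under every alternative run, at 13.4 to 17.7 percentage points against the Sst set and 12.02 to 15.3 against the Adarb2 set with 1 library left out. The share by storage, frozen minus fresh, of -0.0554 percentage points became 0.0923 after thinning and 0.128 without nuclei of 3 or more kidney and liver UFIs, chosen after seeing the data, and ran from -0.298 to 0.4999 with 1 library left out (0.4999 without No_index_frozen_1 and 0.117 without No_index_fresh_2). The share by primer, Index minus No_index, of 0.559 points ran from 0.0752 to 0.873 with 1 library left out and was 0.553 after thinning, 0.810 without the nuclei with kidney and liver UFIs and 1.35 under the rule without the Lhx6 minimum, the last 2 chosen after seeing the data. Grin3a against the Adarb2 set turned from 0.30 to -0.79 on the log2 scale when nuclei with any Sst UFI were left out, where it passed the test (edgeR adjusted p = 0.00731), and passed as higher, at 0.55, without No_index_fresh_2 (edgeR adjusted p = 0.0165). Depth limits Pvalb detection: at 5000 UFIs a nucleus, 13.7% of the no-Sst Lhx6 nuclei had a Pvalb UFI.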
